A study of Homo sapiens with 8 samples.

Results

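The genes described here encode the nuclear-encoded subunits of the respiratory chain and the ATP synthase, measured by RNAseq in HEK293T cells with and without DZNep. They were chosen by gene symbol alone: the NDUF genes of groups A, B, C, S and V for complex I, SDHA to SDHD for complex II, the UQCR genes for complex III, the COX4 to COX8 genes for complex IV and the ATP5 genes of the F, M, P and IF series for complex V. A total of 86 protein-coding genes carry such a symbol, and 80 of them are among the 19118 genes of the deposited table of normalized counts. These 80 genes comprised 37 of complex I, 4 of complex II, 9 of complex III, 12 of complex IV and 18 of complex V, and all 80 passed the filter on low counts. They lie on 22 different chromosomes.

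The study asked how DZNep changes transcripts by comparing 4 libraries of drug-treated HEK293T cells (100 µM, 48 h) with 4 libraries of vehicle-treated cells (Control). HEK293T, a human embryonic kidney line with the SV40 large T antigen, is the only line in the study. DZNep (3-deazaneplanocin A) resembles adenosine and blocks AHCY, the enzyme that clears S-adenosyl-homocysteine. Both groups share the line and the harvest time, and the labels name DMEM as their medium where the methods of the study name RPMI. The study calls the samples of a group biological replicates, but the labels do not say that they came from separate cultures, so p-values measure the spread between these libraries. Library totals ranged from 25043058 to 44902779 counts. Mitochondrially encoded transcripts took 7.76%, 3.02%, 3.16% and 13.7% of the counts in Control replicates 1 to 4 and 7.04%, 4.25%, 4.44% and 10.1% in DZNep replicates 1 to 4, so replicates 1 and 4 stood apart from 2 and 3 in each group. Of 10 markers listed for the line, 9 were detected in all libraries, among them KRT18, VIM, CDH2, NEFL, NEFM and, at lower levels, PAX2 and EPCAM, while PAX8, a kidney marker, had 24 counts over the 8 libraries.

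Complexes I to IV of the inner mitochondrial membrane carry electrons from NADH and succinate to oxygen, and complex V, the ATP synthase, uses the proton gradient that results. Most subunits are encoded in the nucleus and imported, while a small set of core membrane subunits of complexes I, III, IV and V is encoded in mitochondrial DNA. The promoters of the nuclear genes are known for sites of NRF1, of the GA-binding protein (GABP) and of YY1.

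The promoters of the genes that passed the test with the largest falls and of the genes that rose are shown, since these are the transcripts on which the comparison turns. Each sequence holds the 250 bases before the transcription start given by RefSeq on GRCh38.p14, read 5′ to 3′ on the strand of the gene, and capitals mark a match to GCGCANGCG (NRF1), CCGGAAG (GABP) or AANATGGCG (YY1) on either strand. NDUFV3 (chr21:42893059-42893308, plus strand) had no match, ATP5PD (chr17:75046970-75047219, minus strand) had 1 GABP match, and NDUFS8 (chr11:68030431-68030680, plus strand) had 1 YY1 match. UQCRC1 (chr3:48609647-48609896, minus strand) had 2 NRF1 matches, and UQCRFS1 (chr19:29213152-29213401, minus strand) had 1. For all 5 genes the RefSeq start lies at the edge of or within the gene span that GENCODE gives.
NDUFV3: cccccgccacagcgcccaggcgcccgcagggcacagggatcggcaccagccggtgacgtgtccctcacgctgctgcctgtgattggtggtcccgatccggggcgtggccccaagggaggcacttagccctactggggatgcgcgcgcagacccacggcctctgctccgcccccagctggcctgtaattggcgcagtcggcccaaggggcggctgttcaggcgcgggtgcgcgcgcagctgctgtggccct
ATP5PD: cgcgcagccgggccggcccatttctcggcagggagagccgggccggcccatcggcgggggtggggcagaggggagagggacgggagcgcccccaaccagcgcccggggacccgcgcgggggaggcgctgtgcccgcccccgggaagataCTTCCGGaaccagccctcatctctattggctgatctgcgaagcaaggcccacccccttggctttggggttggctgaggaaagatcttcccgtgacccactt
NDUFS8: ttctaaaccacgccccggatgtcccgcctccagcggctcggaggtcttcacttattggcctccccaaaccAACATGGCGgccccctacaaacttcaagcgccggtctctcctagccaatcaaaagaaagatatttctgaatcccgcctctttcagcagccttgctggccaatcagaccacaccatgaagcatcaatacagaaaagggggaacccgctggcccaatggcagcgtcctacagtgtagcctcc
UQCRC1: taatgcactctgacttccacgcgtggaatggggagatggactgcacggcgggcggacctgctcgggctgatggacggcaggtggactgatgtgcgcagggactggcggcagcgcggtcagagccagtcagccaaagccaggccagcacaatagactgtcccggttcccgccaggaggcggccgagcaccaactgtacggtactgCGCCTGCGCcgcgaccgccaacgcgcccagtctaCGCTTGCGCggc
UQCRFS1: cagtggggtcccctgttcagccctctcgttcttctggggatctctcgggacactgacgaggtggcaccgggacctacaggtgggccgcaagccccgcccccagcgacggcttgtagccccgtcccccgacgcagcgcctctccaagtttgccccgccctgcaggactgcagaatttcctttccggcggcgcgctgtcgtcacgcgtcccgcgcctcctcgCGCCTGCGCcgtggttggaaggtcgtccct

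RefSeq gave a promoter for 66 of the 80 genes. The NRF1 letters occurred in 28.8% of these 66 promoters and in 6.56% of all 35116 promoters of the same length. The GABP letters occurred in 25.8% and 8.52%, and the YY1 letters in 3.03% and 1.38%. No comparison was made with promoters of like expression or base composition, so these shares may not be particular to subunit genes. The median log2 fold change was -0.27 for the 19 genes with an NRF1 match and -0.27 for the 47 without. With a GABP match, 16 of 17 genes had a negative log2 fold change, against 33 of 49 without, and the medians were -0.30 and -0.27. A match of letters is a description and not a binding site.

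Of the 80 respiratory chain subunits, 9 changed upon DZNep treatment when the libraries were tested by treatment alone, and they belong to complexes I, III and V. The accessory subunit NDUFV3 and the stalk subunit ATP5PD fell the most, the iron-sulphur subunit NDUFS8 fell next, and the complex III subunits UQCRC1 and UQCRFS1 rose. With edgeR's quasi-likelihood test and Benjamini-Hochberg adjustment over all 19171 genes tested, 7 of the 80 genes fell (8.75%), against 21.8% of all genes, and 2 rose, against 19.1%. When an absolute log2 fold change over 1 was also asked for, 3 genes fell (3.75%), against 13.5% of all genes, and 0 rose, against 10.6%. At an unadjusted p under 0.05, 14 were lower, against 26.0% of all genes, and 4 were higher, against 22.9%. In this fit the share of subunit genes called was below that of all genes in each direction, a difference that was not tested and that turned for the lower genes with the replicate block. The 4 DZNep libraries lay below the 4 Control libraries for 5 genes (6.25%), against 20.2% of all genes, and above them for 2 genes, against 18.6%. With the median-ratio scaling of the deposited normalized counts, NDUFS4 and SDHA joined the latter to make 4, against 19.4% of all genes, and 5 genes lay below, against 19.5%.

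The fold changes were small for most subunits. The log2 fold change, DZNep against Control, was within 0.5 of 0 for 53 of the 80 genes and beyond 1 for 4. Its median was -0.25, against -0.03 over all genes tested, and 58 of the 80 values were negative. By complex, the median was -0.29 for complex I, 0.13 for complex II, -0.03 for complex III, -0.32 for complex IV and -0.32 for complex V. The median over the 80 genes rested on replicate 4 of each group: it was 0.01 without Control replicate 4 and -0.41 without DZNep replicate 4. In bulk RNA, a lower level per cell and fewer cells with the transcript cannot be told apart.

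The groups share replicate numbers, and libraries of the same number deviated together (correlations of 0.14, 0.49, 0.43 and 0.67 for replicates 1 to 4). Some libraries of different numbers did so too, with 0.53 between Control replicate 1 and DZNep replicate 4 and 0.40 between Control replicate 2 and DZNep replicate 3. The comparison was repeated with a block for the replicate number, in which 31 genes fell (38.8%), against 30.2% of all genes, and 8 rose (10.0%), against 28.8%. The 9 genes called without the block were all called with it, and 24 further genes were lower and 6 further genes were higher. The median standard error of the log2 fold change over the 80 genes was 0.12 with the block and 0.27 without, while the median log2 fold change was -0.19 with it. The genes that fell with the block numbered 16 in complex I, 0 in complex II, 2 in complex III, 4 in complex IV and 9 in complex V. Those that rose numbered 4, 1, 2, 0 and 1.

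**Figure D1:**
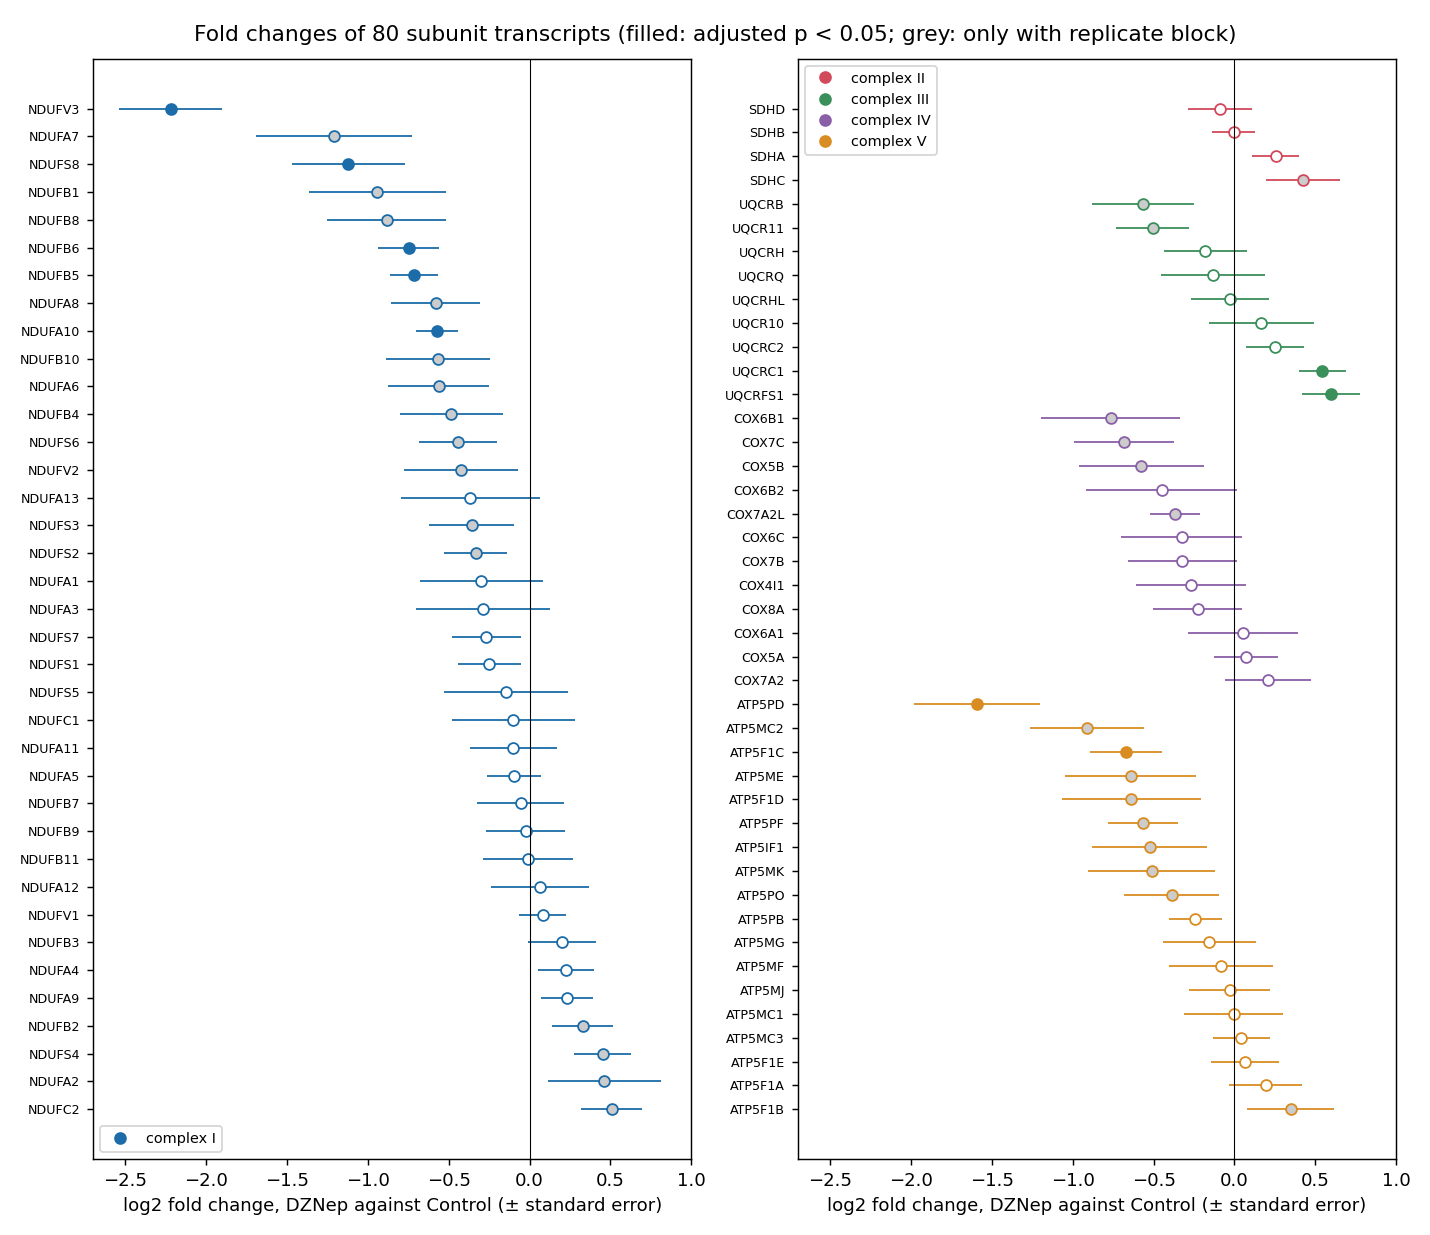
Log2 fold change of the 80 subunit genes, DZNep against Control, with its standard error on the horizontal axis and 1 gene per row, ordered by complex. Filled points passed an adjusted p of 0.05 without the block (7 lower, 2 higher), grey points passed it only with the replicate number as a block (24 lower, 6 higher), and NDUFV3 at -2.22 lies farthest from 0.

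Complex I oxidizes NADH, and its 37 nuclear genes here comprise 7 for core subunits, which carry the flavin and iron-sulphur clusters, and 30 counted as supernumerary. The latter include NDUFA4, placed here by its symbol although its protein is known as a subunit of complex IV. Of the 37 genes, 5 fell, against 21.8% of all genes, and 0 rose, against 19.1%. NDUFV3, a supernumerary subunit of the NADH-binding module (chromosome 21, 42879644 to 42913304, GRCh38), had normalized counts of 3993, 1716, 2266 and 4363 in Control replicates 1 to 4 and of 680, 522, 570 and 931 in DZNep replicates 1 to 4. The groups did not overlap, with all DZNep libraries lower, and in each group replicates 1 and 4 were the highest. Its mean was 3084 ± 1291 in Control and 676 ± 183 in DZNep (SD, n = 4), a log2 fold change of -2.22 (SE 0.32, edgeR adjusted p = 0.000418). It stayed called when each library was left out in turn, at values between -2.42 and -2.01.

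NDUFS8, a core subunit that holds 2 iron-sulphur clusters (chromosome 11, 68030617 to 68036644), had 7426, 3529, 3972 and 9669 normalized counts in Control and 2982, 2072, 2230 and 4249 in DZNep. Replicate 4 of DZNep exceeded Control replicates 2 and 3, so the groups overlapped, while each DZNep library was below the Control library of its number. NDUFS8 had a log2 fold change of -1.12 (SE 0.35, edgeR adjusted p = 0.0261). The edgeR adjusted p was 0.0646 without Control replicate 1, 0.0592 without Control replicate 4, and 0.0634, 0.0766 and 0.0783 without DZNep replicates 1, 2 and 3. limma on log2(normalized count + 1) gave an adjusted p of 0.0581.

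The other complex I genes that fell, NDUFB6, NDUFB5 and NDUFA10, encode supernumerary subunits and were named after their values were seen. NDUFB6, of the membrane arm, had 2598, 2445, 2151 and 3212 normalized counts in Control and 1668, 1382, 1257 and 2014 in DZNep (log2 fold change -0.75, SE 0.19, edgeR adjusted p = 0.00969). NDUFB5, also of the membrane arm, had 2804, 3352, 3304 and 2576 in Control and 1999, 1620, 1761 and 2089 in DZNep (-0.72, SE 0.15, edgeR adjusted p = 0.00355). NDUFA10 had 3495, 3609, 3678 and 3070 in Control and 2342, 2570, 2389 and 2186 in DZNep (-0.57, SE 0.13, edgeR adjusted p = 0.00537). The groups did not overlap for any of the 3, and NDUFB5 and NDUFA10 did not share the high replicates 1 and 4 of Control that NDUFV3 and NDUFS8 showed.

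The complex I gene with the highest log2 fold change was NDUFC2, a membrane arm subunit, with 2097, 1887, 1698 and 2679 normalized counts in Control and 3218, 2710, 2422 and 3763 in DZNep. The DZNep library of each number was above the Control library, and DZNep replicate 3 lay below Control replicate 4. Its log2 fold change was 0.51 (SE 0.19, edgeR adjusted p = 0.0573, and 0.000946 with the replicate block). It was also called by DESeq2 (adjusted p = 0.0298) and by edgeR without Control replicate 4 (adjusted p = 0.0184) or DZNep replicate 3 (0.0434), and its exons overlap those of the readthrough gene NDUFC2-KCTD14 on the same strand. The 7 core subunits had a median log2 fold change of -0.33 with 1 called, and the 30 supernumerary subunits of -0.22 with 4 called.

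**Figure D2:**
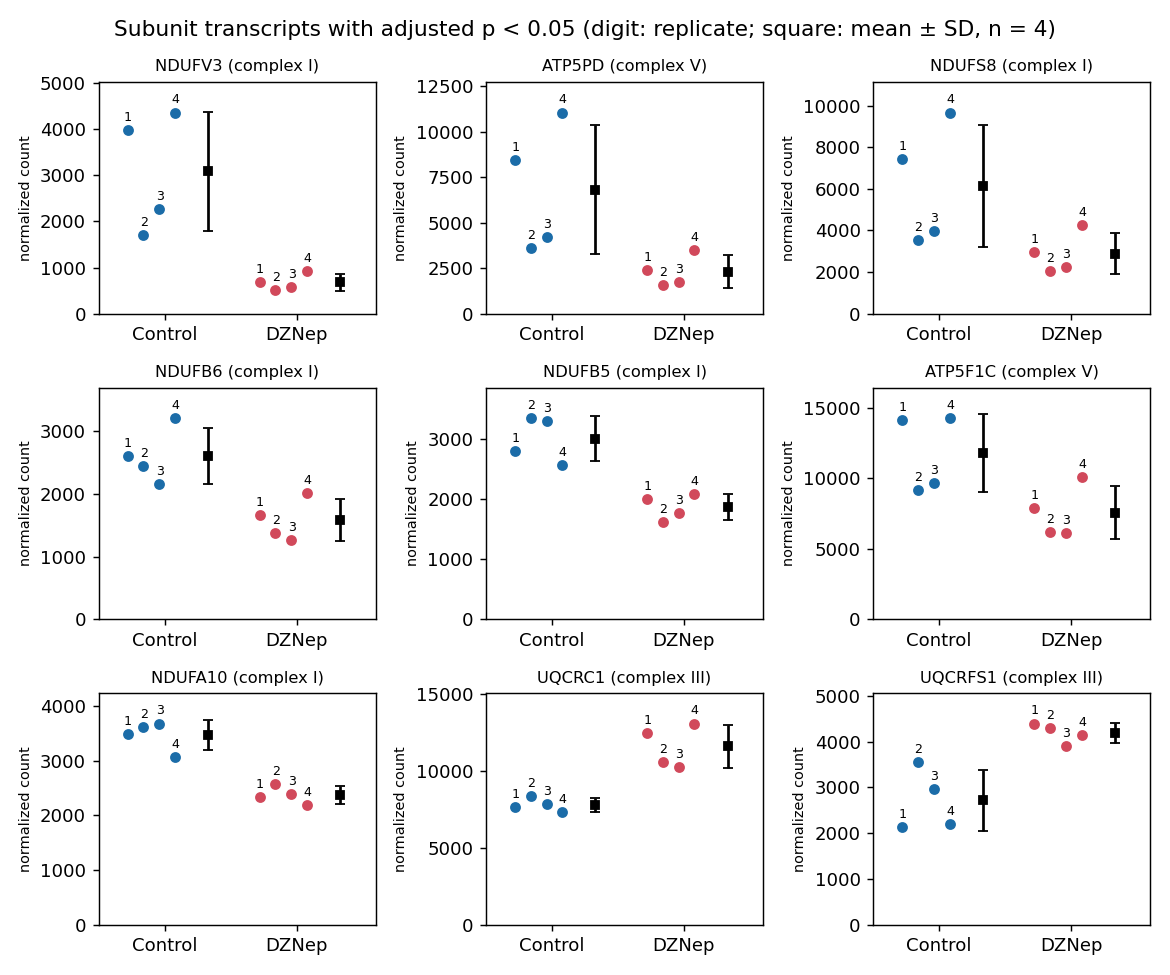
Normalized counts (vertical axes, from 0) of the 9 subunit genes with an adjusted p under 0.05, in the 4 Control and 4 DZNep libraries, each point with its replicate number, and squares with bars for the mean ± SD. The groups overlap for NDUFS8 and ATP5F1C and not for the others, and DZNep libraries of UQCRC1 lie between 10243 and 13062 against 7284 to 8348 in Control.

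Complex II, succinate dehydrogenase, is the only complex of the chain made of nuclear-encoded subunits alone, and it also serves the citric acid cycle. None of its 4 genes passed the test without the block. SDHA, the flavoprotein, had 5897, 8009, 7425 and 6175 normalized counts in Control and 8413, 8563, 8491 and 8011 in DZNep. The highest Control library and the lowest DZNep library nearly met, and the log2 fold change was 0.26 (SE 0.15, edgeR adjusted p = 0.189). SDHC, a membrane anchor, had 4734, 8539, 6834 and 4204 in Control and 8590, 9106, 8654 and 6828 in DZNep (0.42, SE 0.23, edgeR adjusted p = 0.166, 0.00721 with the replicate block and 0.0338 without Control replicate 2). SDHB, the iron-sulphur subunit, was at 3968 ± 274 in Control and 4033 ± 402 in DZNep (SD, n = 4), with a log2 fold change of -0.00 (SE 0.13). SDHD, the other anchor, was at 4077 ± 728 and 3911 ± 885, with a log2 fold change of -0.09 (SE 0.20, edgeR adjusted p = 0.748). SDHA and SDHC were the genes of this complex with lower counts in Control replicates 1 and 4 than in 2 and 3.

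Complex III, the cytochrome bc1 complex, passes electrons from ubiquinol to cytochrome c, and it held the only subunit genes that rose without the block. UQCRC1, a core protein (chromosome 3, 48599002 to 48610976), was named after its values were seen and had 7663, 8348, 7849 and 7284 normalized counts in Control and 12447, 10539, 10243 and 13062 in DZNep. All DZNep libraries were above all Control libraries, with a mean of 7786 ± 442 against 11573 ± 1393 (SD, n = 4). The log2 fold change was 0.54 (SE 0.14, edgeR adjusted p = 0.0119), and it stayed called, at 0.49 to 0.60, when each library was left out in turn.

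UQCRFS1, the Rieske iron-sulphur protein (chromosome 19, 29205320 to 29213151), had 2143, 3545, 2971 and 2204 normalized counts in Control and 4395, 4300, 3893 and 4147 in DZNep. The groups did not overlap, and the Control libraries spread more than the DZNep libraries, with SDs of 669 and 219. Its log2 fold change was 0.60 (SE 0.18, edgeR adjusted p = 0.0228). The edgeR adjusted p was 0.0700 without Control replicate 1, 0.0514 without Control replicate 4, 0.0644 without DZNep replicate 1 and 0.0535 without DZNep replicate 2. The other core protein, UQCRC2, was not called, and the 3 genes together had a median of 0.54, against -0.15 for the 6 small subunits.

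Among the small subunits of complex III, UQCRB, which takes part in ubiquinone binding, had the lowest log2 fold change. Its normalized counts were 8806, 4300, 4508 and 11128 in Control and 5083, 4042, 4120 and 6561 in DZNep, so replicates 1 and 4 carried the difference carried the difference and the groups overlapped. Its log2 fold change was -0.57 (SE 0.32, edgeR adjusted p = 0.180, and 0.00900 with the replicate block). The hinge protein has the genes UQCRH and UQCRHL, whose coding sequences are near copies of each other, so that reads between them are uncertain. UQCRHL took 2.02% ± 0.11 of the counts of the pair in Control and 2.29% ± 0.46 in DZNep (SD, n = 4), and neither gene was called (edgeR adjusted p = 0.614 for UQCRH and 0.942 for UQCRHL).

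Complex IV, cytochrome c oxidase, reduces oxygen, and its catalytic core is encoded in mitochondrial DNA, so that the 12 nuclear genes here encode the subunits around it. None of the 12 passed the test without the block, and 9 had a negative log2 fold change. COX6B1, which faces the intermembrane space, had 7816, 4142, 3666 and 12911 normalized counts in Control and 4250, 2922, 2795 and 7182 in DZNep. Replicate 4 of each group was the highest, and each DZNep library was below the Control library of its number. COX6B1 thus had a log2 fold change of -0.77 (SE 0.43, edgeR adjusted p = 0.183, and 0.000205 with the replicate block). COX7A2 was at the other end of the complex, with 4583 ± 1443 in Control and 5407 ± 1723 in DZNep (SD, n = 4) and a log2 fold change of 0.21 (SE 0.27, edgeR adjusted p = 0.562).

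COX7A2L, a relative of COX7A2 that takes part in joining complexes III and IV, had 5460, 4526, 5239 and 5382 normalized counts in Control and 4381, 3352, 3740 and 4787 in DZNep, with a log2 fold change of -0.37 (SE 0.15, edgeR adjusted p = 0.0807, and 0.00889 with the replicate block). Of the counts of both genes, COX7A2 took 47.6%, 43.5%, 39.5% and 54.6% in Control replicates 1 to 4 and 54.4%, 56.7%, 52.4% and 62.3% in DZNep replicates 1 to 4. The share was higher in DZNep for each number, while Control replicate 4 exceeded DZNep replicates 1 and 3. COX6B2, the testis isoform, was near the limit of the table with 12 to 44 normalized counts in a library, and its share of the counts of the COX6B genes was 0.332% ± 0.104 in Control and 0.406% ± 0.042 in DZNep (SD, n = 4).

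Complex V makes ATP with a head (F1), a ring of c subunits in the membrane and a peripheral stalk that holds the head in place. ATP5PD, the d subunit of the stalk (chromosome 17, 75038863 to 75046985), had 8459, 3596, 4203 and 11068 normalized counts in Control and 2428, 1574, 1719 and 3528 in DZNep. The groups did not overlap, although DZNep replicate 4 and Control replicate 2 nearly met, and each DZNep library was far below the Control library of its number. The mean was 6832 ± 3558 in Control and 2312 ± 892 in DZNep (SD, n = 4), with a log2 fold change of -1.59 (SE 0.39, edgeR adjusted p = 0.00832), and it stayed called, at -1.86 to -1.26, when each library was left out in turn. Its exons overlap KCTD2 on the opposite strand. All 4 stalk genes had a negative log2 fold change, with a median of -0.48, and ATP5PD was the only one called without the block, against 3 with it.

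In the head, ATP5F1C, the gamma subunit that turns within it, fell and was named after its values were seen. It had 14123, 9150, 9708 and 14293 normalized counts in Control and 7891, 6202, 6114 and 10073 in DZNep, and DZNep replicate 4 exceeded Control replicates 2 and 3. The log2 fold change was -0.67 (SE 0.22, edgeR adjusted p = 0.0348). The edgeR adjusted p was 0.0899 and 0.0707 without Control replicates 1 and 4 and 0.0800, 0.0974 and 0.102 without DZNep replicates 1, 2 and 3.

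ATP5F1B, the catalytic beta subunit, had the highest log2 fold change of complex V, with 23508, 47955, 33932 and 19356 normalized counts in Control and 43184, 43920, 39753 and 34788 in DZNep. Control replicates 1 and 4 were low and Control replicate 2 was above every DZNep library. The log2 fold change was 0.35 (SE 0.27, edgeR adjusted p = 0.330, 0.0284 with the replicate block and 0.0468 without Control replicate 2). ATP5IF1, the protein that inhibits ATP hydrolysis by the head, had 12956, 6142, 6165 and 16432 in Control and 7317, 5758, 5507 and 11005 in DZNep, with a log2 fold change of -0.52 (SE 0.35, edgeR adjusted p = 0.265, and 0.0105 with the replicate block).

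The c subunit of the ring is encoded by ATP5MC1, ATP5MC2 and ATP5MC3, which give the same mature protein. ATP5MC2 had 14335, 6824, 8195 and 18314 normalized counts in Control and 6502, 4421, 4971 and 9978 in DZNep, with overlapping groups. Its log2 fold change was -0.91 (SE 0.35, edgeR adjusted p = 0.0611, and 2.03e-05 with the replicate block). DESeq2 called it (adjusted p = 0.0362), as did edgeR without Control replicate 2 (adjusted p = 0.0205), Control replicate 3 (0.0481) or DZNep replicate 4 (0.0213). ATP5MC3 was at 9376 ± 1125 and 9854 ± 1875, and ATP5MC1 at 3947 ± 1366 and 4016 ± 1619 (SD, n = 4), with edgeR adjusted p of 0.861 and 0.993.

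The share of ATP5MC2 in the counts of the 3 c subunit genes was 52.7%, 32.8%, 44.1% and 53.3% in Control replicates 1 to 4 and 31.2%, 27.1%, 31.7% and 35.0% in DZNep replicates 1 to 4. It was lower in DZNep for each number, and DZNep replicate 4 was above Control replicate 2. The mean share was 45.7% ± 9.58 in Control and 31.2% ± 3.23 in DZNep (SD, n = 4), while ATP5MC3 went from 38.8% ± 8.74 to 49.4% ± 4.49 and ATP5MC1 from 15.5% ± 2.24 to 19.3% ± 2.31. A total of 8 processed pseudogenes are named after ATP5MC1 and 5 after ATP5MC2, so the assignment of reads to these genes is uncertain. The exons of ATP5MC2 also overlap RPL31P51 on the same strand.

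**Figure D3:**
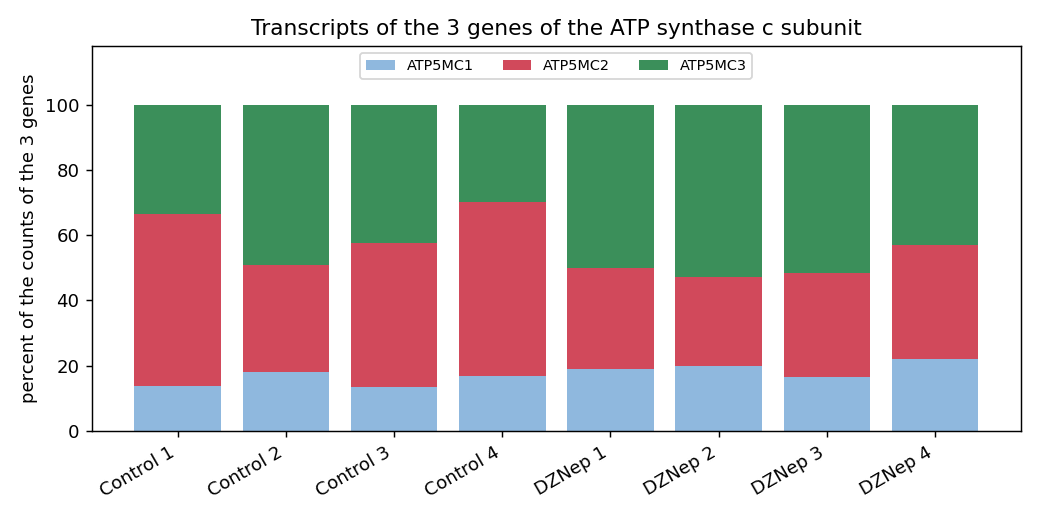
Share of ATP5MC1, ATP5MC2 and ATP5MC3 in the summed normalized counts of the 3 genes, in percent, for each of the 8 libraries. The ATP5MC2 part runs from 32.8% to 53.3% in Control and from 27.1% to 35.0% in DZNep.

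The levels of the subunit genes followed the replicate number within each group. Relative to the mean of each gene over the 8 libraries on the log2 scale, the median over the 80 genes was 0.30, -0.28, -0.27 and 0.61 in Control replicates 1 to 4 and -0.01, -0.31, -0.42 and 0.43 in DZNep replicates 1 to 4. The 80 genes together took 1.32%, 1.07%, 1.04% and 1.37% of the counts in Control and 1.17%, 1.02%, 1.01% and 1.34% in DZNep. Replicates 1 and 4 were both above replicates 2 and 3 for 61 of the 80 genes in Control and for 68 in DZNep, and both below them for 12 and 4. The median log2 ratio of replicates 1 and 4 to 2 and 3 was 0.79 in Control and 0.61 in DZNep, against 0.02 and 0.01 over all genes tested. These are the libraries with the higher share of mitochondrially encoded transcripts, and what sets them apart was not tested.

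**Figure D4:**
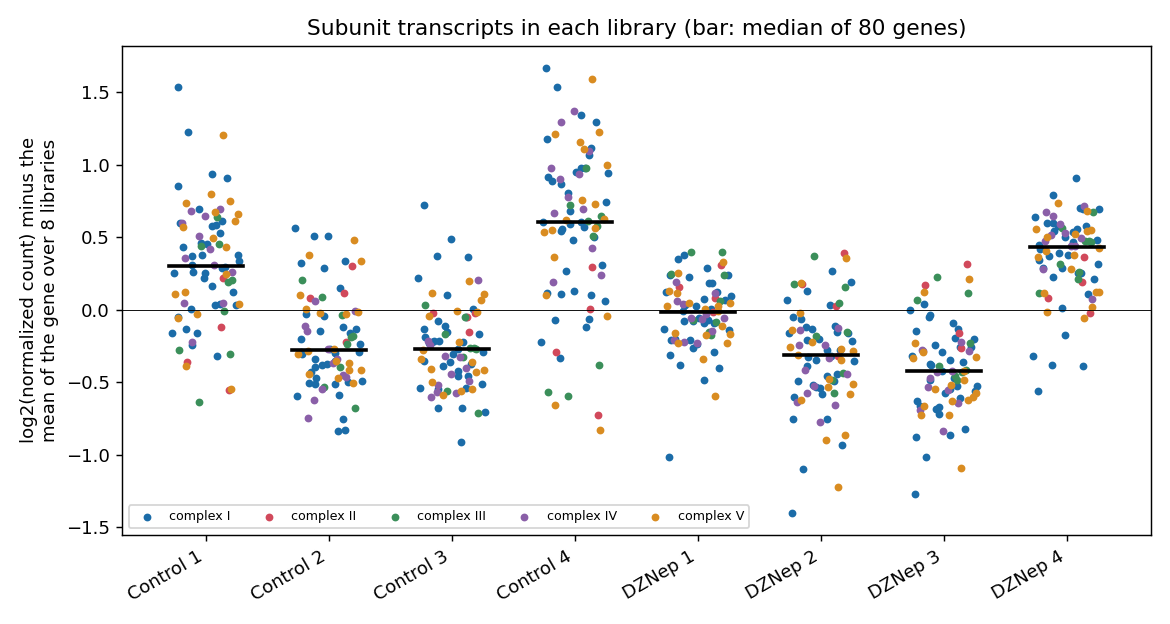
Log2 normalized count of each of the 80 subunit genes minus its mean over the 8 libraries (vertical axis), by library, coloured by complex, with a bar at the median. The medians of replicate 4 are the highest of their groups (0.61 in Control, 0.43 in DZNep), and those of replicates 2 and 3 are the lowest (-0.28 to -0.27 in Control, -0.42 to -0.31 in DZNep).

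Within a replicate number, the log2 ratio of DZNep to Control had a median over the 80 genes of -0.33, -0.02, -0.11 and -0.16 for replicates 1 to 4. It was negative in all 4 pairs for 31 genes (38.8%), against 31.2% of all genes, and positive in all 4 for 13 (16.2%), against 33.1%. Of the 39 genes called with the block, 36 had the same sign in all 4 pairs, an agreement that the selection by that fit favours. NDUFV3 was the gene farthest from 0, with paired log2 ratios of -2.55, -1.72, -1.99 and -2.23.

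The split between libraries was related to transcript length. The subunit genes are short, with a median canonical transcript (Ensembl) of 760.5 bases, against 2798 over the genes tested. Across the 80 genes, the log2 ratio of replicates 1 and 4 to 2 and 3 correlated with the log2 transcript length at r = -0.58 in Control and -0.64 in DZNep, and over all genes tested at -0.40 and -0.42. The log2 fold change correlated with transcript length at r = 0.08 across the 80 genes and 0.03 over all genes. With the log2 ratio of replicates 1 and 4 to 2 and 3 in DZNep, the log2 fold change correlated at r = -0.45 across the 80 genes. What links them was not tested. These values describe genes of the same libraries, which are not independent replicates. The ratio in Control ran from -0.93 for ATP5F1B to 1.71 for NDUFA7, and it differed among the longest transcripts, with -0.59 for NDUFS1 and 1.18 for UQCRB. With an offset for transcript length in the fit, an alternative added after seeing the data, the median log2 fold change over the 80 genes was -0.08, with 16 genes lower, against 23.7% of all genes, and 6 higher, against 23.4%. The part of length in the split between libraries was not tested.

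**Figure D5:**
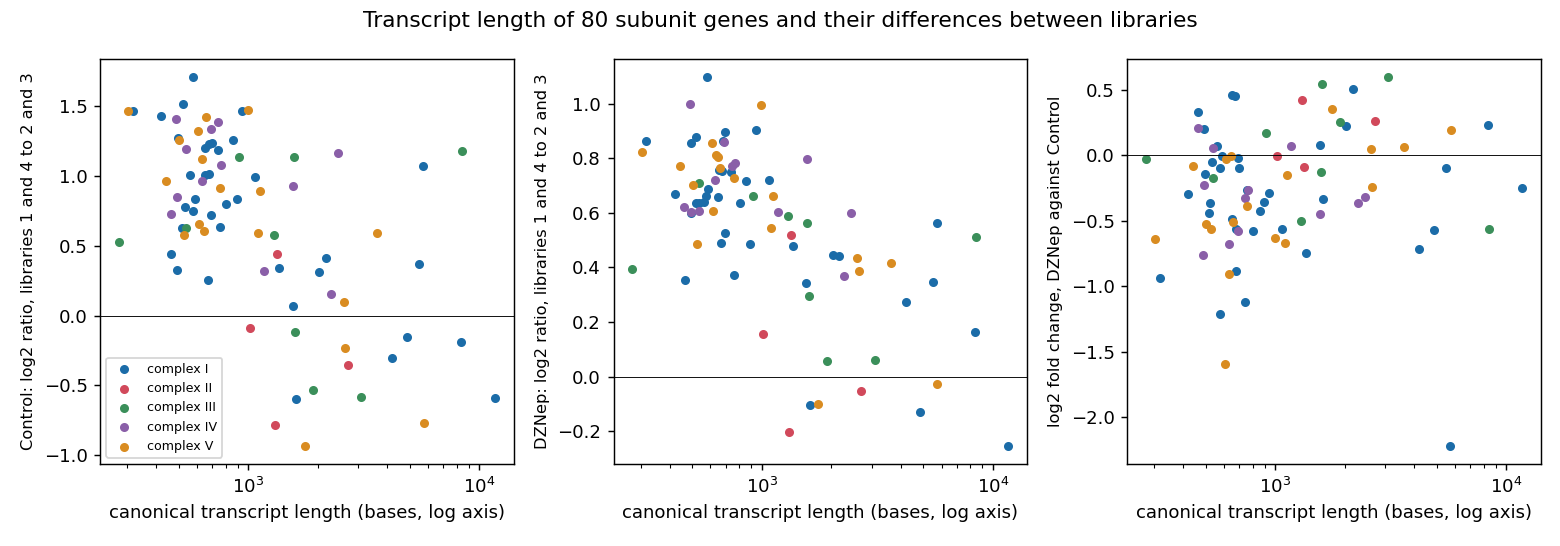
Canonical transcript length (horizontal log axes, bases) of the 80 subunit genes against the log2 ratio of replicates 1 and 4 to 2 and 3 in Control (left) and DZNep (middle) and against the log2 fold change (right), coloured by complex. The ratios fall with length (r = -0.58 and -0.64) and the fold changes show little relation to it (r = 0.08).

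Per kilobase of canonical transcript, the median level of the subunit genes was highest in complex IV, with 11527 normalized counts per kilobase in Control and 8888 in DZNep. It was 6930 and 5385 in complex V, 4472 and 3093 in complex I, 3477 and 3541 in complex II and 2926 and 2210 in complex III. The order of the complexes was the same in Control and DZNep except that complex II stood above complex I in DZNep. These levels depend on which transcript is taken as canonical.

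The 6 matching genes outside the table of normalized counts encode isoforms known from other tissues: COX4I2, COX6A2, COX7A1, COX7B2, COX8C and ATP5MGL. None had more than 14 counts in a library. COX4I2 and COX6A2 had 0 counts in all libraries but DZNep replicate 4, which had 2 of each. A count of 0 sets an upper limit of 1.2e-05% of the counts in Control replicate 1, the library with the lowest total, for counting error only.

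Genes around the subunits were examined in lists fixed with earlier results known. In lists of assembly factors, carriers, ubiquinone synthesis, transcription factors and mitochondrial mass references, 28 of 101 genes tested were lower and 12 were higher, against 21.8% and 19.1% of all genes. Of 19 assembly factors of complex I, 6 fell and 2 rose. TIMMDC1, a membrane arm assembly factor, had 3328, 4195, 3984 and 3019 normalized counts in Control and 1263, 1180, 1271 and 1117 in DZNep, without overlap (log2 fold change -1.61, SE 0.15, edgeR adjusted p = 4.05e-05). NDUFAF3 also fell (-1.04, SE 0.37, edgeR adjusted p = 0.0457), a call lost with median-ratio normalization (adjusted p = 0.0507) and without Control replicates 1 or 4 or DZNep replicates 1, 2 or 3 (0.0978 to 0.124).

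Of 4 assembly factors of complex II, SDHAF1 (-0.92, edgeR adjusted p = 0.00306) and SDHAF4 (-0.87, edgeR adjusted p = 0.00554) fell, while SDHA to SDHD were not called. Of 6 assembly factors of complex III, UQCC2 (-1.24, edgeR adjusted p = 0.0180, and 0.0527, 0.0557 and 0.0548 without DZNep replicates 1, 2 and 3) and LYRM7 (-1.17, edgeR adjusted p = 7.27e-05), which serves the insertion of the Rieske protein, fell, while the transcript of the Rieske protein itself rose. Of 24 assembly factors of complex IV, 6 fell, against 21.8% of all genes, and 4 rose, against 19.1%. Among them, CMC1 was at -1.46 (edgeR adjusted p = 0.00171) and COX10, which turns heme B into heme O on the way to heme A, at 1.14 (edgeR adjusted p = 0.000136). Of 4 assembly factors of complex V, FMC1 fell (-1.36, edgeR adjusted p = 0.00699) and TMEM242 rose (0.72, edgeR adjusted p = 0.0108). Of 6 further subunits and carriers outside the symbol rule, DMAC2L fell (-0.76, edgeR adjusted p = 0.00785).

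Ubiquinone carries electrons from complexes I and II to complex III. Of 11 genes of its synthesis 5 fell, against 21.8% of all genes, and 2 rose, against 19.1%. COQ3, a methyltransferase of the pathway, had 1431, 1164, 1165 and 1360 normalized counts in Control and 587, 514, 443 and 702 in DZNep, without overlap (log2 fold change -1.22, SE 0.17, edgeR adjusted p = 0.000366). COQ2, which joins the ring and the isoprenoid tail, fell as well (-1.06, SE 0.16, edgeR adjusted p = 0.000649). Of the 13 mitochondrially encoded subunit genes, 0 were called in either direction by edgeR without the block (1 was higher with it). Their paired medians were -0.17, 0.55, 0.47 and -0.50 for replicates 1 to 4, against -0.33, -0.02, -0.11 and -0.16 for the nuclear-encoded genes. The mitochondrially encoded genes thus differed in sign between replicate numbers.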

How the data were processed

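RNAseq was measured in 8 libraries, grouped by the treatment in the labels. Per the labels and the study's methods, the authors used Trimmomatic 0.36 for trimming, STAR 2.5.2b for mapping on GRCh38 and featureCounts (Subread 1.5.2) for counting reads per gene. They counted unique reads within exons only. The annotation release and strandedness are not given in the sources used here, so overlapping and antisense genes are uncertain (21 of the 80 genes overlap a counted gene on the same strand and 27 on the other). The authors deposited raw counts of 57500 genes and a signal in normalized counts of 19118 genes, in which a size factor of the library, multiplied back, gave whole reads within 0.001 for 100% of values.

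Counts were tested with edgeR 4.0.16 in R 4.3.3 (quasi-likelihood, TMM, filterByExpr, treatment only, 19171 genes), adjusted by Benjamini-Hochberg at 0.05. The code was tested on simulated data. Values per library are the deposited normalized counts. Overlap between groups was judged on CPM after TMM scaling. DESeq2 1.42.0, limma 3.58.1 on log2(normalized count + 1 or 0.1), other scalings, filters and thresholds, length offsets, the replicate block and leaving out each library were alternatives. Deviations from the group means correlated at 0.14, 0.49, 0.43 and 0.67 between libraries with the same number in the labels, all above 0.1. By this threshold the numbers were treated as pairs in the fits with the block and in the paired ratios, while the main fit used treatment only. Control replicate 1 correlated at 0.53 with DZNep replicate 4, above its 0.14 with DZNep replicate 1. The threshold therefore cannot show that libraries were paired by number.

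The members, gene lists and alternatives were chosen with earlier results of these data known. Genes named were members passing both thresholds, the highest and lowest of each complex, isoform sets, SDHA to SDHD, ATP5IF1 and up to 2 called genes per list. Others were named after their values were seen. Of 25 listed complex IV assembly factors, 24 were matched. Gene positions and transcript lengths came from GENCODE's annotation of GRCh38. Proteomics was not analysed here.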

Additional observations from a re-analysis of the deposited data

Results flagged for a closer look

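For 2 genes of the lists around the subunits, 1 library stood far from the other 3 of its group by Dixon's ratio. SDHAF4, a complex II assembly factor, had 242 normalized counts in DZNep replicate 2, below 346 to 365 in the other DZNep libraries. HSPD1, a mitochondrial chaperonin, had 53145 normalized counts in Control replicate 2, above 35249 to 37868 in the other Control libraries. Among the 76 groups examined (38 genes in 2 conditions), chance alone flags about 1 in 20.

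Signal was also present in genes outside the 80 subunit genes compared. COX7B2, the testis isoform of a complex IV subunit, had 0 counts in the 4 Control libraries and 12 counts summed over the 4 DZNep libraries (3, 6, 1 and 2). The processed pseudogene COX5BP4 had a mean of 32.6 ± 4.93 normalized counts in DZNep and 6.85 ± 1.02 in Control (SD, n = 4), with a log2 fold change of 2.21 (SE 0.30, edgeR adjusted p = 0.000329), while COX5B itself was not called (edgeR adjusted p = 0.261). COX5BP4 had only 5.37 to 7.71 normalized counts in the Control libraries, so it passed the filter on low counts through the DZNep libraries. Its p-value is therefore not independent support for a rise. The study counted unique reads only. How reads alike in a processed pseudogene and its parent gene were assigned was not tested.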

How the results depend on the processing

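Of the 38 genes named by rule, 8 changed sign in at least 1 alternative, none of them past the threshold. The count of genes higher (2) was 4 with DESeq2, 4 with library sizes alone, 4 with an offset for exonic length, 6 with one for transcript length, 8 with the replicate block, 12 and 14 with the block and each offset, and 1 to 4 leaving out 1 library (1 without Control replicate 1 or DZNep replicate 1, and 4 without Control replicate 2). Over all genes, 28.8% were higher with the block and 23.4% with the transcript offset, against 19.1% in the main fit. The count lower (7) was 11 without a filter, 16 with either offset, 31 with the replicate block, 30 and 26 with the block and the exonic or transcript offset, and 5 to 15 leaving out 1 library (12 without Control replicate 2, 15 without DZNep replicate 4). DESeq2 also called NDUFA7 (adjusted p = 0.0334) and ATP5MC2 (0.0362) lower. Over all genes, 30.2% were lower with the block and 23.7% with the transcript offset, against 21.8% in the main fit. Shares over all genes in the other settings are not given here, so those counts alone do not show a change particular to the subunits. Past the fold threshold, 3 were lower, 6 against a fold of 1.2 (glmTreat) and 2 to 7 leaving out 1 library (7 without Control replicate 2 or DZNep replicate 4, 5 without Control replicate 3, and 2 without each of the others), and 0 were higher, 1 with glmTreat and 0 to 0 leaving out 1 library. NDUFA7 was at -1.21 in the main fit (edgeR adjusted p = 0.0690). It passed both thresholds with DESeq2 (-1.18, adjusted p = 0.0334) and with the replicate block (-1.10, edgeR adjusted p = 4.82e-05). Above without overlap stood 2 genes, 4 with median-ratio scaling (NDUFS4 and SDHA added) and 5 with library sizes alone. The median log2 fold change (-0.25) was -0.083 with the transcript offset, -0.079 with it and the replicate block, and -0.41 to 0.0074 leaving out 1 library. By complex it ranged from -0.43 to -0.0036 (I), 0.069 to 0.18 (II), -0.20 to 0.13 (III), -0.54 to -0.0079 (IV) and -0.49 to -0.16 (V). Of the other respiratory chain genes, 21 rather than 12 were higher with the replicate block, against 28.8% of all genes. With the block 42 rather than 28 of them were lower, against 30.2%. The cause was not tested.

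Values with the opposite sign were as follows. SDHD was at 0.021 with the transcript offset and 0.016 with it and the block. ATP5MC1 was at 0.022 with DESeq2 and median-ratio scaling, 0.081 with library sizes alone, 0.030 without a filter, 0.024 with at least 10 reads in every library, 0.013 with the exonic offset, 0.0093 with it and the block, 0.0081 with limma at either pseudocount, and 0.13 with the transcript offset, with or without the block. SDHB was at 0.020 with DESeq2 and median-ratio scaling, 0.068 with library sizes alone, 0.016 without a filter, 0.027 with at least 10 reads, 0.013 with the exonic offset, 0.027 with it and the block, 0.021 with limma at either pseudocount, 0.12 with the transcript offset and 0.15 with it and the block. UQCRHL was at 0.062 with library sizes alone, 0.0075 without a filter, 0.0017 with at least 10 reads, 0.014 and 0.011 with the exonic offset without and with the block, 0.012 and 0.011 with the transcript offset likewise, and 0.0021 with limma at either pseudocount. Leaving out 1 library gave -0.23 to 0.0092 for SDHD, -0.021 to 0.42 for COX7A2, -0.30 to 0.24 for ATP5MC1, -0.069 to 0.13 for ATP5MC3, -0.39 to 0.0083 for UQCRH, -0.20 to 0.17 for UQCRHL, -0.77 to 0.084 for COX6B2 and -0.059 to 0.056 for SDHB. limma with a pseudocount of 0.1 lost UQCC2 (adjusted p = 0.0534).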

Other observations

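Of 14 transcription factors and coactivators of respiratory genes, 3 fell, against 21.8% of all genes, and 1 rose, against 19.1%. The gene that rose, TFEB, named after its values were seen (log2 fold change 0.39, SE 0.14, edgeR adjusted p = 0.0447), was called in 0 of the 8 fits that left out 1 library. GABPB2, a partner of the GA-binding protein, had 1281, 560, 828 and 1352 normalized counts in Control and 240, 214, 289 and 362 in DZNep, with no overlap (log2 fold change -1.89, SE 0.29, edgeR adjusted p = 0.000633). ESRRA, a nuclear receptor that acts on oxidative metabolism, had 2029, 1676, 1648 and 2200 in Control and 894, 829, 915 and 973 in DZNep (-1.09, SE 0.15, edgeR adjusted p = 0.000281). Among 13 genes taken as references for mitochondrial mass, 2 fell, against 21.8% of all genes, and 2 rose, against 19.1%. With the replicate block 7 of them fell, against 30.2% of all genes, and 2 rose, against 28.8%. The median log2 fold change of these 13 genes was -0.33, with 11 of 13 values negative, beside -0.25 for the 80 subunit genes. HSPD1 fell (-0.98, SE 0.19, edgeR adjusted p = 0.00213) and PHB1, a prohibitin of the inner membrane, rose (0.56, SE 0.20, edgeR adjusted p = 0.0447). PHB1 lost its call with limma (adjusted p = 0.0547), without a filter (0.0590) and without Control replicates 1, 3 or 4 or DZNep replicates 1, 2 or 4 (0.0504 to 0.121).

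Of 9 markers of other cell types, 6 passed the filter and 0 of them were called by edgeR, also at an unadjusted p under 0.05. CD3E, a T cell gene, had 0 counts in the 4 Control libraries and 8.16 to 40.5 normalized counts in the DZNep libraries. It did not pass the filter with all 8 libraries, and it passed and was called higher in 5 of the 8 fits that left out 1 library. With 0 counts in Control, CD3E passed the filter in those fits through the DZNep libraries alone. Those 5 calls are therefore not independent support for a rise. Of 9 tested markers listed for the line (epithelial, kidney, mesenchymal and neurofilament genes), 4 rose, against 19.1% of all genes, and 1 fell, against 21.8%.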
